A study of Mus musculus with 8 samples.

Results

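The integrated stress response was followed through 10 genes of the deposited expression table, *Atf3*, *Atf4*, *Atf5*, *Ddit3*, *Trib3*, *Chac1*, *Asns*, *Sesn2*, *Ppp1r15a*, and *Eif2b5*. They were chosen by symbol, as factors, targets, a feedback gene, and a translation factor subunit of this pathway. All 10 were among the 25239 genes deposited, and all 10 were among the 18123 genes tested, which averaged 0.1 or more CPM (reads scaled to a common library size) over the libraries. The measure was the normalized read count of polyadenylated RNA per gene.

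In this response, one of several kinases senses a stress such as amino acid shortage, misfolded protein in the endoplasmic reticulum, double-stranded RNA, or heme shortage, and phosphorylates the translation factor eIF2α. Phosphorylated eIF2 inhibits its exchange factor eIF2B, so that general translation slows while the mRNA of ATF4 is translated more, and ATF4 then activates genes of amino acid supply, redox balance, and cell death. White matter is known to be sensitive to this pathway, because inherited variants of the eIF2B subunits cause vanishing white matter disease.

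The RNA came from the corpus callosum, the main bridge of white matter between the hemispheres, of adult male mice of the labelled strain C57BL/6 (C57BL/6J in the study's methods). Bilateral common carotid artery stenosis (BCAS), in which a microcoil around each common carotid artery lowers cerebral blood flow, was compared with a sham operation without coils, in wild-type (WT) mice and in mice that lack the channel TRPA1 in all cells (Trpa1 -/-, TRPA1-KO). Each genotype label had 4 libraries, namely 1 sham library on postoperative day 14 and 1 BCAS library each on days 7, 10, and 14. No day was replicated within a label, so the 3 BCAS libraries of a label served as its replicates, and the spread between them holds differences between days as well as between mice.

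The libraries held between 7896071 and 12952093 reads on genes, and 3 reads corresponded to between 0.235 and 0.378 CPM. *Trpa1* itself went against the labels, with 1 read in the sham library labelled WT, 0 reads in the 3 BCAS libraries labelled WT, and between 3 and 11 reads in each of the 4 libraries labelled TRPA1-KO. Libraries are therefore named by their label here, and each direction between labels rests on those labels. Oligodendrocyte markers summed to between 12932 and 17362 CPM over the libraries, as fits white matter. Neuron markers were also high, with sums between 5867 and 7697 CPM. Among them, *Slc17a7* of excitatory neurons lay between 1024 and 1349 CPM. The share of grey matter in the libraries was not tested. Markers of striatal projection neurons, which do not belong to the corpus callosum, summed to between 659.5 and 1730 CPM. The BCAS library of day 7 labelled WT stood apart from the others in all 7 microglia markers, and values without it are given where leaving it out moved a gene's difference between 2 groups by over 1.5 times.

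Of the 10 genes, 4 carried the core of a CEBP-ATF response element, the sequence to which ATF4 binds with a CEBP partner, in the window from 250 bases before to 50 bases after the annotated start. The core was searched as TGATGNAA on both strands. It was present in 4 of the 10 genes and in 3.97% of all 32851 promoter windows of RefSeq GRCm38.p6. The core TGACGTCA of the cAMP response element was found in 1 of the 10 genes and in 1.79% of all windows. The matching stretches are shown, with the core in capitals, because they are where a factor of this pathway could bind in the genes that hold a core. The match of *Trib3* lies just after the RefSeq start, so a shorter stretch is given for it.
*Atf3*, chr1:191183389-191183488, minus strand: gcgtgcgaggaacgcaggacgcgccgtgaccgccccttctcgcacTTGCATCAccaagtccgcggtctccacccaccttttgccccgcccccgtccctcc
*Chac1*, chr2:119351004-119351103, plus strand: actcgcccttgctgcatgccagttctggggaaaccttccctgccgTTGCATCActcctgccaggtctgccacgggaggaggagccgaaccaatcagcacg
*Asns*, chr6:7693210-7693309, minus strand: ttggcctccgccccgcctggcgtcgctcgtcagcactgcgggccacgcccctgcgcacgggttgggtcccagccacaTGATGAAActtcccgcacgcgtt
*Trib3*, chr2:152344028-152344057, minus strand: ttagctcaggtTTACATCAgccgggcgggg
*Ppp1r15a*, chr7:45526269-45526368, minus strand: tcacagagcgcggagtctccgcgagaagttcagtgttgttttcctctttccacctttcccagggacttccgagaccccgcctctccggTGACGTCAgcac

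Gene positions given below come from GENCODE M21, whose starts can differ from those of RefSeq. For *Atf3*, the RefSeq start is at 191183333 and the GENCODE start at 191218039. By the GENCODE starts, the cores of *Atf3* and *Asns* lie inside the gene and that of *Trib3* lies before it. Counted from the RefSeq start, the core began at position -110 in *Atf3* and -193 in *Chac1*, in both as TTGCATCA, which matches on the opposite strand. In *Asns* it began at position -23. In *Ppp1r15a* the cAMP response element core began at position -12. These matches describe the letters only, and the windows of *Atf4*, *Atf5* (2 annotated starts), *Ddit3*, *Sesn2*, and *Eif2b5* held neither core.

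The transcripts of the pathway differed widely in level. Per kilobase of exon, *Atf4* had the highest mean over the 8 libraries at 45.8 CPM per kb, followed by *Asns* at 29.7 CPM per kb. *Eif2b5* (17.2 CPM per kb), *Ddit3* (13.3 CPM per kb), and *Atf5* (9.30 CPM per kb) lay in the middle. *Ppp1r15a* had 4.10 CPM per kb, *Chac1* 3.51 CPM per kb, and *Sesn2* 2.90 CPM per kb. *Atf3* and *Trib3* were lowest, with means of 0.979 and 0.329 CPM per kb. The ranges over libraries of *Atf4* (39.6 to 54.2 CPM per kb) and *Asns* (27.1 to 33.3 CPM per kb) did not overlap. Those of *Eif2b5* and *Ddit3* overlapped, as did those of *Ddit3* and *Atf5*, and of *Ppp1r15a* and *Chac1*. The ranges of *Chac1* and *Sesn2*, of *Sesn2* and *Atf3*, and of *Atf3* and *Trib3* also overlapped. Overlap of ranges over libraries does not show whether the order of neighbours changed within a library. The factor that drives the response was thus abundant as RNA in every library, sham libraries included, while the pseudokinase *Trib3* was near the limit of 3 reads, with between 1 and 13 reads per library.

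**Figure D1:**
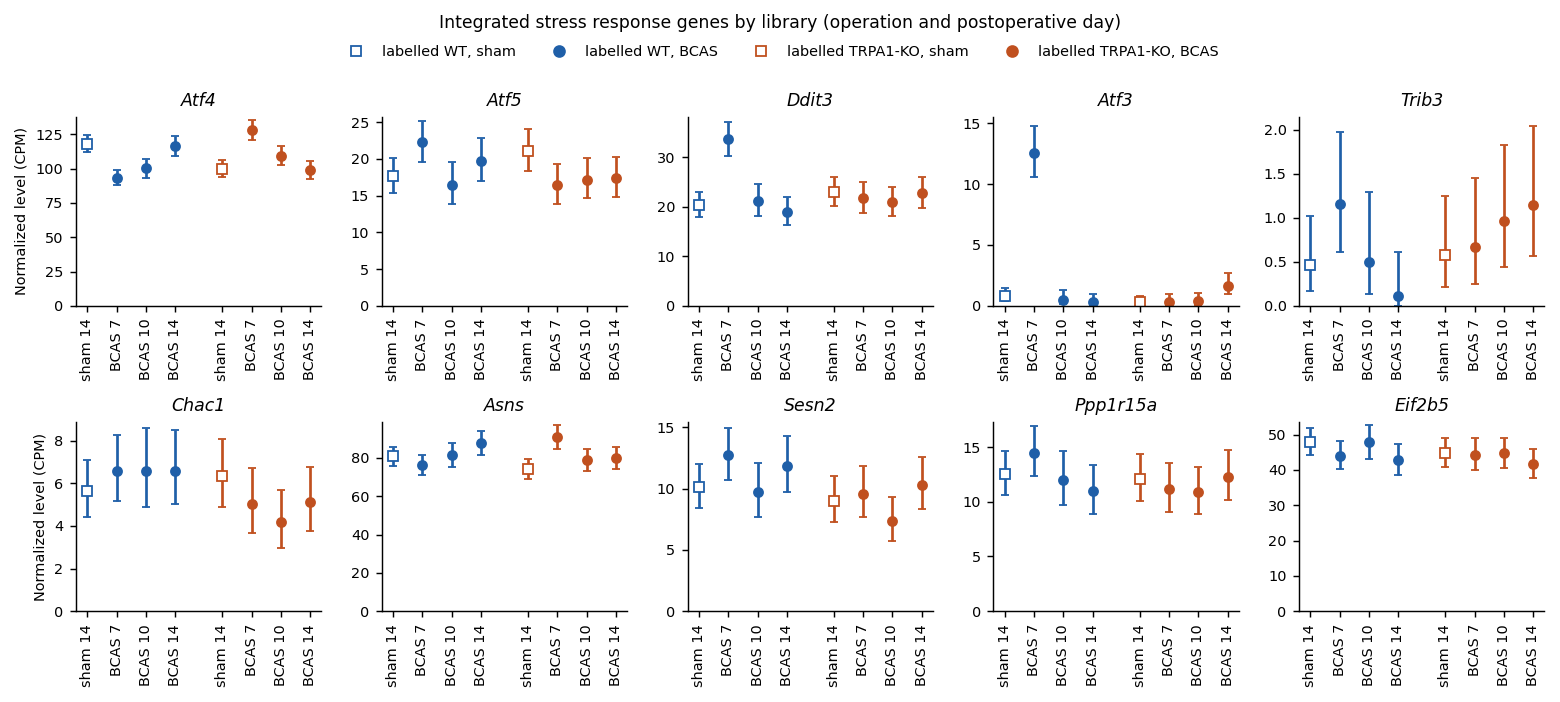
Level of each gene in CPM (vertical axes, from 0) in the 8 libraries (horizontal axes, operation and postoperative day), with squares for sham, circles for BCAS, blue for the label WT, and orange for the label TRPA1-KO. Error bars are 95% Clopper-Pearson intervals of the read counts, which cover counting error only. *Atf3* and *Ddit3* stood out at 12.5 and 33.6 CPM in the BCAS library of day 7 labelled WT, and *Chac1* was between 4.16 and 5.10 CPM in the BCAS libraries labelled TRPA1-KO against 6.55 to 6.58 CPM in those labelled WT.

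*Atf4* (chr15:80255184-80257541, plus strand, GRCm38) encodes the central transcription factor of the response. With the label WT, its level was 118.1 CPM after sham operation and, on days 7, 10, and 14 of BCAS, 93.5, 100.1, and 116.2 CPM. For the TRPA1-KO label, the sham value was 99.8 CPM and the BCAS values were 127.8, 109.2, and 98.8 CPM. The lowest level came from the day 7 library labelled WT and the highest from the day 7 library labelled TRPA1-KO, and the BCAS groups overlapped. *Atf4* differed between BCAS labels by -0.11 (SE 0.11) on the log2(CPM + 1) scale, and no test passed (limma adjusted p = 0.983, exact permutation p = 0.60). Without the day 7 library labelled WT the difference was -0.046. The summed level of 8 neuron markers was lowest (5867 CPM) and highest (7697 CPM) in the same libraries as that of *Atf4*. It lay between 6526 and 7423 CPM in the other 6. Single markers did not all follow the sum. In the day 7 library labelled TRPA1-KO, 3 of the 8 were highest, while *Gad2* was lowest there (175.9 CPM). The part of these markers in the level of *Atf4* was not tested. The control of *Atf4* is known to be mainly by translation, which these RNA data do not measure.

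*Ddit3* (chr10:127290774-127296288, plus strand) encodes CHOP, a factor linked to cell death in sustained stress. With the label WT it measured 20.3 CPM for sham and, in day order, 33.6, 21.2, and 19.0 CPM for BCAS. With the label TRPA1-KO it measured 22.9 CPM for sham and 21.8, 20.9, and 22.8 CPM for BCAS. The day 7 library labelled WT was 1.47 times the highest of the other 7 libraries, which lay between 19.0 and 22.9 CPM. The interval of its 378 reads (30.3 to 37.2 CPM) did not reach those of the other 7 libraries, while these 7 varied no more than counting error. The BCAS groups overlapped, with a difference between labels of 0.12 (SE 0.18, exact permutation p = 0.90), which was -0.12 without the day 7 library labelled WT. Exons of *Ddit3* overlap those of *Mars1* on the opposite strand, and the strand setting of the counting is not given in the sources used here. *Mars1* was at 52.8 CPM in the day 7 library labelled WT and between 40.7 and 56.6 CPM in the others, and so was not highest there.

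*Atf3* (chr1:191170296-191218039, minus strand) encodes a stress-inducible factor that is a target of ATF4 and also an immediate early gene. With the label WT, sham gave 0.782 CPM and BCAS gave 12.5 CPM on day 7, 0.504 CPM on day 10, and 0.329 CPM on day 14. With the label TRPA1-KO, sham gave 0.288 CPM and BCAS gave 0.334, 0.427, and 1.66 CPM in the same order. Of the 184 reads of *Atf3* in all libraries, 141 came from the day 7 library labelled WT, and the others held between 3 and 16 reads each. The level in that library (95% interval 10.6 to 14.8 CPM) was 7.53 times the next highest, that of day 14 labelled TRPA1-KO (0.952 to 2.70 CPM). The BCAS groups overlapped, and the difference between labels was 0.81 (SE 0.74, 95% CI -0.85 to 2.46, exact permutation p = 0.70), which was -0.28 without that library.

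*Atf5* (chr7:44812256-44816658, minus strand) encodes a factor whose translation is controlled much as that of ATF4. For the label WT, the sham level was 17.6 CPM and the BCAS levels were 22.2, 16.5, and 19.8 CPM in day order. For the label TRPA1-KO, the sham level was 21.1 CPM and the BCAS levels were 16.5, 17.2, and 17.4 CPM. The highest library was again day 7 labelled WT, the BCAS groups overlapped, and the difference between labels was 0.18 (SE 0.13, exact permutation p = 0.30), which was 0.082 without that library. Exons of *Atf5* overlap those of *Nup62* and *Il4i1* on the opposite strand, and *Nup62* lay between 26.3 and 34.4 CPM.

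*Chac1* (chr2:119351229-119354381, plus strand), a target of ATF4 and CHOP that degrades glutathione, was the one gene of the 10 whose BCAS groups did not overlap. Libraries labelled WT had 5.63 CPM after sham operation and 6.58, 6.55, and 6.58 CPM after BCAS, in day order. Libraries labelled TRPA1-KO had 6.33 CPM after sham operation and 5.01, 4.16, and 5.10 CPM after BCAS. The 3 BCAS libraries labelled WT lay closer to each other (SD 0.0167 CPM) than the intervals of their 52 to 74 reads, so this closeness is below what counting error gives a single library. BCAS libraries labelled WT (6.57 ± 0.0167 CPM, SD, n = 3) were above those labelled TRPA1-KO (4.76 ± 0.515 CPM, SD, n = 3) on each of the 3 days. The difference was 0.40 (SE 0.17, 95% CI 0.013 to 0.79) and had a limma p of 0.044, but an adjusted p of 0.983. The exact permutation p was 0.10, the smallest that 3 against 3 libraries allow. Among all genes tested, 4.20% had a p under 0.05 and 9.21% had BCAS groups that did not overlap, against 1 of the 10 genes for each.

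*Sesn2* (chr4:132492032-132510501, minus strand) encodes a leucine sensor that restrains mTORC1. Libraries labelled WT had 10.1 CPM after sham operation and 12.7, 9.70, and 11.9 CPM after BCAS, in day order. Libraries labelled TRPA1-KO had 9.01 CPM and then 9.57, 7.37, and 10.3 CPM. The library labelled WT was the higher on each of the 3 days, by 0.38, 0.36, and 0.19 on the log2(CPM + 1) scale, but the BCAS groups overlapped and the difference of 0.31 (SE 0.18) did not pass (limma adjusted p = 0.983, exact permutation p = 0.20).

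*Asns* (chr6:7675169-7693254, minus strand), the asparagine synthetase and a classical ATF4 target, was lowest at 74.1 CPM with sham labelled TRPA1-KO and highest at 90.9 CPM with day 7 of the same label, beside 80.8 CPM with sham labelled WT. The BCAS libraries labelled WT had 76.3, 81.3, and 87.8 CPM in day order, and those labelled TRPA1-KO had 90.9, 78.9, and 79.8 CPM. These groups overlapped, and the difference was -0.02 (SE 0.086), which was 0.024 without day 7 labelled WT.

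*Trib3* (chr2:152337422-152344032, minus strand), a pseudokinase that feeds back on ATF4 and CHOP, had 1.16, 0.504, and 0.110 CPM in the BCAS libraries labelled WT, in day order. Those labelled TRPA1-KO had 0.668, 0.961, and 1.14 CPM, and the sham libraries had 0.469 CPM (WT) and 0.575 CPM (TRPA1-KO). With 13, 4, and 1 reads against 6, 9, and 11 reads, the difference of -0.32 (SE 0.25) did not pass. Without the day 7 library labelled WT it was -0.57, with a limma p of 0.026 and an adjusted p of 0.999.

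*Ppp1r15a* (chr7:45522916-45526268, minus strand) encodes GADD34, the inducible subunit that returns a phosphatase to eIF2α and so ends the response. The BCAS libraries labelled WT had 14.5, 12, and 11 CPM in day order, those labelled TRPA1-KO had 11.1, 10.9, and 12.3 CPM, and the sham libraries had 12.5 CPM (WT) and 12.1 CPM (TRPA1-KO). It was highest on day 7 with the label WT, the groups overlapped, and its spread over the 8 libraries was close to counting error. The difference between BCAS labels was 0.11 (SE 0.15), and 0.0050 without that library.

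*Eif2b5* (chr16:20498817-20509323, plus strand), the catalytic subunit of eIF2B and one of the genes of vanishing white matter disease, was the most even of the 10 genes. It lay between 41.7 CPM on day 14 after BCAS with the label TRPA1-KO and 47.8 CPM with sham labelled WT. Its difference between BCAS labels was 0.041 (SE 0.083, 95% CI -0.14 to 0.22).

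The spread of each gene over the 8 libraries was set against counting error, as a chi-square divided by its degrees of freedom, which is 1 for counting error alone and had a median of 2.48 over all genes tested. *Atf3* had 93.9, *Atf4* 13, and *Ddit3* 9.94. Without the day 7 library labelled WT, *Atf3* had 3.76 and *Ddit3* 0.885, whereas *Atf4* still had 10.7. The spread of *Atf4* was thus not set by that library. *Asns* (3.71), *Sesn2* (2.71), and *Atf5* (2.68) lay slightly above the median of all genes. *Trib3* (1.88), *Chac1* (1.38), *Ppp1r15a* (1.20), and *Eif2b5* (1.03) lay below it. This ratio grows with the number of reads, so it does not rank the genes by the size of their changes. The range of log2(CPM + 1) over the 8 libraries was 0.45 for *Atf4*. It was between 0.55 and 0.96 for *Chac1*, *Sesn2*, *Ddit3*, and *Trib3*, and 3.39 for *Atf3*. For *Atf5*, *Ppp1r15a*, *Asns*, and *Eif2b5* it was between 0.19 and 0.41.

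**Figure D2:**
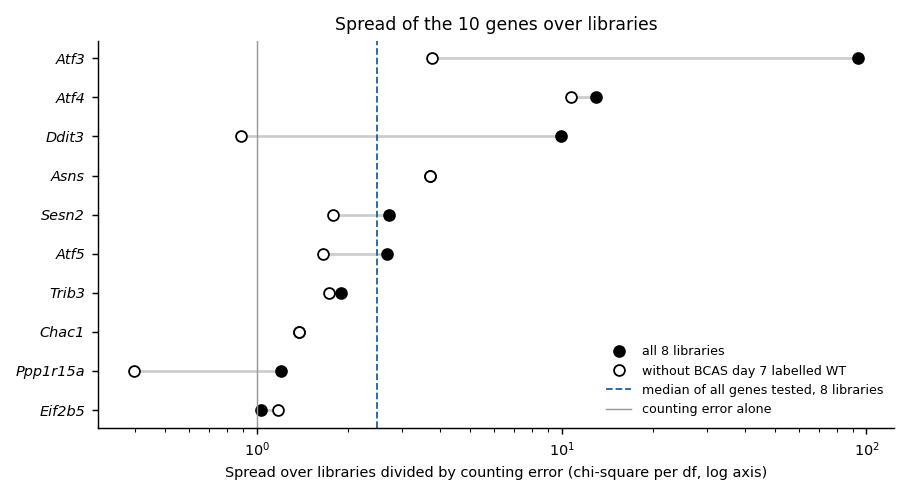
Spread of each gene over the libraries divided by counting error (horizontal log axis, chi-square per degree of freedom), for all 8 libraries (filled) and without the BCAS library of day 7 labelled WT (open). The dashed line is the median of all genes tested in 8 libraries (2.48). *Atf3* moved from 93.9 to 3.76 and *Ddit3* from 9.94 to 0.885, while *Atf4* stayed at 10.7 or above.

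The highest level of 6 of the 10 genes, *Atf3*, *Ddit3*, *Ppp1r15a*, *Sesn2*, *Atf5*, and *Trib3*, was in the BCAS library of day 7 labelled WT, as was that of 21.9% of all genes tested. *Sesn2*, *Atf5*, and *Trib3* exceeded the next highest library there by only 1.07, 1.05, and 1.01 times, and *Ppp1r15a* did so by 1.16 times. The median of the 10 genes in this library was 0.21 above the mean of both sham libraries on the log2(CPM + 1) scale, and between -0.069 and 0.035 in the other 7. On day 7, 7 of the 10 genes were higher with the label WT than with the label TRPA1-KO after BCAS, with a median difference of 0.36, while 51.0% of all genes tested were higher. On days 10 and 14, 7 and 6 of them were, with medians of 0.059 and 0.086, and 49.6% and 48.7% of all genes were. These single-day values have no replicate.

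All 7 microglia markers (*Cx3cr1*, *P2ry12*, *Tmem119*, *Csf1r*, *Aif1*, *C1qa*, and *C1qb*) were also highest in the day 7 library labelled WT, with a median of 1.31 above sham. In the day 10 library labelled WT the markers had a median of 0.72, while that of the 10 genes was -0.013. Their summed level was 716 CPM there, 417 and 250 CPM on days 10 and 14 with the same label, between 233 and 335 CPM in the BCAS libraries labelled TRPA1-KO, and 246 and 256 CPM in sham. The day 14 library labelled TRPA1-KO, second highest in *Atf3*, had 335 CPM, while the day 10 library labelled WT had 417 CPM with 4 reads of *Atf3*. Astrocyte and endothelial markers had medians of 0.44 and 0.33 above sham in the day 7 library labelled WT, and striatal projection neuron markers had a median of -1.18. The latter were below sham in all 6 BCAS libraries, with medians from -1.18 to -0.28, and at -0.99 in the day 7 library labelled TRPA1-KO. The part of these markers in the levels of the stress genes was not tested. In RNA of bulk tissue, more cells of a type and more RNA per cell cannot be told apart.

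Immediate early genes are known to be raised by neuronal activity and handling, and *Atf3* is often counted among them. Most lay below the sham mean in the day 7 library labelled WT, where *Atf3* was highest, and only *Jun* of the 16 was highest there. The part of activity or handling in these levels was not tested. *Jun*, a partner of ATF3 in AP-1 factors, was at 72.2 CPM in the day 7 library labelled WT and between 38.1 and 51.7 CPM in the other 7 libraries. In the day 7 library labelled WT, the median of 16 such genes was -0.44 against sham, and 4 of them lay above the sham mean. In the BCAS libraries labelled TRPA1-KO of days 7 and 10, where *Atf3* had 3 and 4 reads, their medians were 0.50 and 0.53. After BCAS, 15 of the 16 were lower with the label WT, with a median of -0.55. *Npas4*, an activity-dependent factor of neurons, differed by -0.74 (limma adjusted p = 0.255) and *Fosb* by -0.88 (limma adjusted p = 0.983), and no gene of this list passed.

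**Figure D3:**
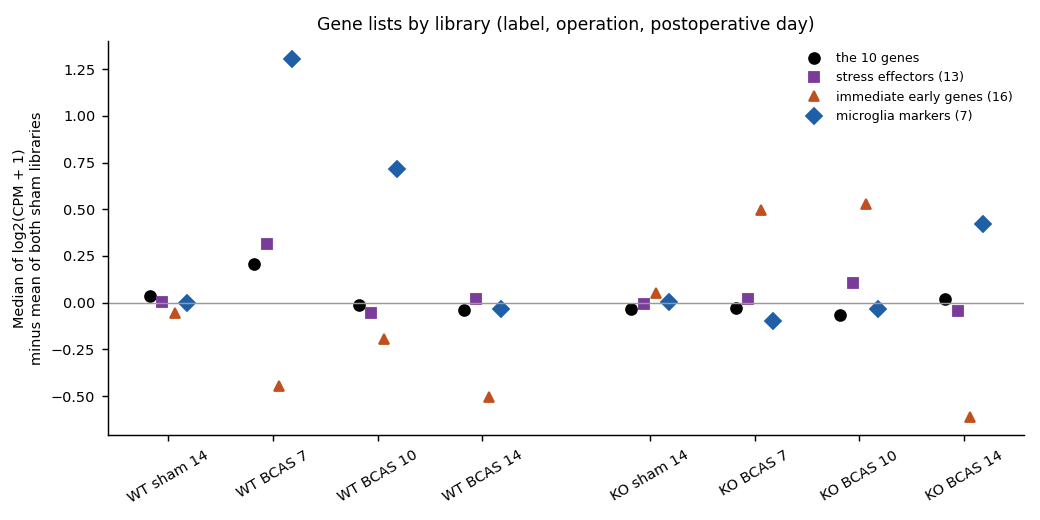
Median over each gene list of the log2(CPM + 1) difference from the average sham library (vertical axis) in each library (horizontal axis, with label, operation, and postoperative day). The 10 genes (black circles) reached 0.21 in the day 7 library labelled WT, where microglia markers (blue diamonds) reached 1.31, stress effectors (purple squares) 0.31, and immediate early genes (orange triangles) -0.44.

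The profiles most like those of the 3 genes with the widest range were sought among 15152 genes that averaged 1 CPM or more, by the root mean square difference of centred log2(CPM + 1) over the 8 libraries. For *Atf3* they were *Ifi207*, an interferon-inducible gene (0.26), *Ms4a6c*, a membrane protein gene of myeloid cells (0.31), and *Ch25h*, the cholesterol 25-hydroxylase gene (0.33). In the day 7 library labelled WT these 3 genes were at 9.25, 9.60, and 9.78 CPM, and in the other 7 libraries none of them exceeded 1.41 CPM. For *Ddit3* they were *Nfkb1*, which encodes the p105 and p50 subunit of NF-κB (0.029), *Msrb1*, a methionine sulfoxide reductase gene (0.040), and *Apoe*, the apolipoprotein E gene (0.044). *Apoe* was at 1465 CPM in that library and between 875.5 and 1008 CPM in the others. For *Trib3*, with its few reads, they were *Hes6* (0.12), *Cav2* (0.13), and *Nat9* (0.13). Likeness over 8 libraries, 1 of which stands apart, is a description.

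The BCAS libraries of both labels were also compared without sham. This comparison cannot tell a difference present without BCAS from a different response to it. Between these libraries, 7 of the 10 genes were higher with the label WT. Their median difference was 0.12, beside 0.0010 over all genes tested. None of the 10 genes had an adjusted p under 0.05 by limma, edgeR, or DESeq2, while 0.0166% of all genes did by limma. The count at an unadjusted p under 0.05 was 1 (*Chac1*) by limma and by edgeR and 0 by DESeq2. Without the day 7 library labelled WT, 6 of the 10 genes were higher, and the median was 0.015.

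**Figure D4:**
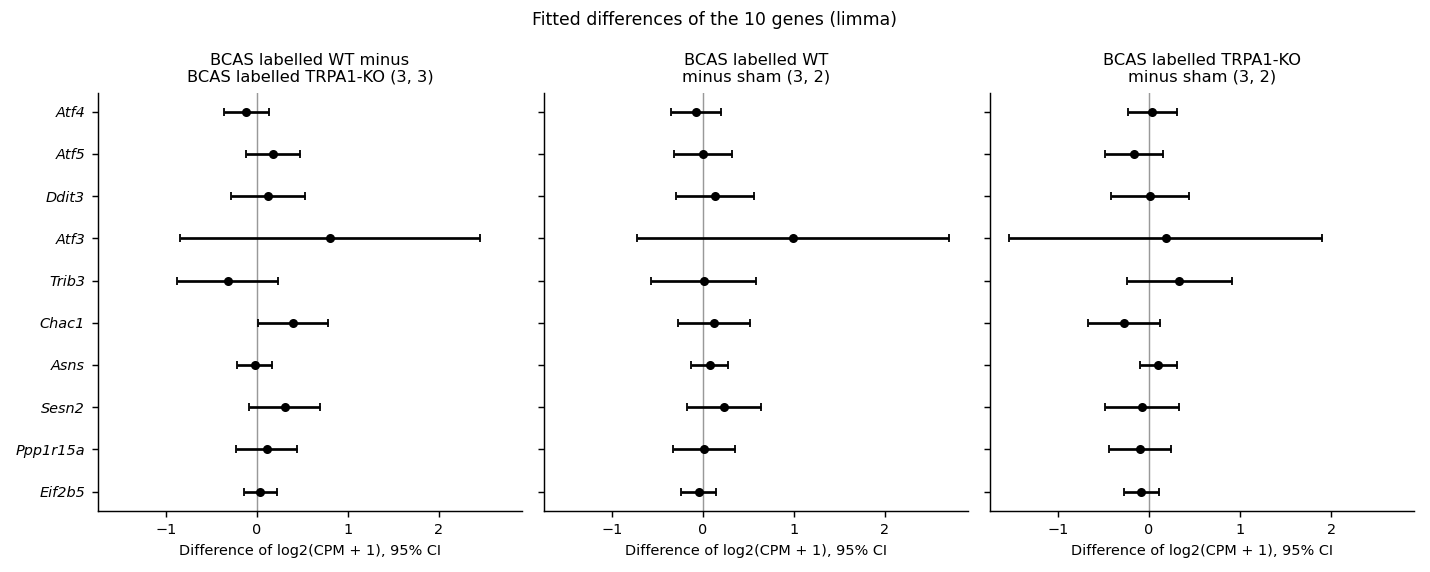
Fitted differences of log2(CPM + 1) with 95% confidence intervals (horizontal axes) for each gene in 3 comparisons, with the number of libraries in brackets. The interval of *Chac1* between BCAS labels, from 0.013 to 0.79, is the only one of the 30 that leaves out 0, before adjustment for the genes tested. The intervals of *Atf3* are the widest.

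Against the 2 sham libraries, taken as 1 group, differences in the BCAS libraries labelled WT were small apart from that of *Atf3*, which rested on 1 library. They ran from -0.08 (SE 0.12) for *Atf4* to 0.99 (SE 0.78) for *Atf3*, with a median of 0.044, and 8 of the 10 genes were higher. Without the day 7 library, *Atf3* differed by -0.10, *Atf4* by -0.0097, and *Ddit3* by -0.10 rather than 0.14, the median was -0.061, and 3 of the 10 genes were higher. *Sesn2* differed by 0.23 (SE 0.19). *Chac1* was higher in all 3 BCAS libraries than in both sham libraries, by 0.12 (SE 0.18), and groups of 19.9% of all genes did not overlap. None of the 10 genes had an adjusted p under 0.05 by limma, edgeR, or DESeq2 (0.0% of all genes by limma), and none had an unadjusted p under 0.05 by limma (5.45% of all genes) or DESeq2. By edgeR, 1 of them did, namely *Atf3* (edgeR adjusted p = 0.71). On the read scale of edgeR and DESeq2, *Atf3* differed by 3.05 and 3.06, and the median of the 10 genes was 0.11 with both.

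With the label TRPA1-KO, 5 of the 10 genes were higher and 5 lower after BCAS than in sham, with a median of -0.030. *Chac1* (-0.28, SE 0.18), *Atf5* (-0.17, SE 0.15), and *Eif2b5* (-0.086, SE 0.088) were lower in all 3 BCAS libraries than in both sham libraries, and *Trib3* (0.33, SE 0.26) was higher. These 4 of 10 genes stand beside 18.6% of all genes whose groups did not overlap, and the exact test of 3 against 2 libraries cannot go below a p of 0.10. None of the 10 genes had an adjusted p under 0.05 (0.00552% of all genes by limma) or an unadjusted p under 0.05 (2.74%) by limma, edgeR, or DESeq2. Both comparisons share the sham libraries.

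*Chac1* thus lay above sham with one label and below it with the other. When each label was set against its own single sham library, the difference between the labels in their BCAS effect was 0.54 (SE 0.34, 95% CI -0.22 to 1.31) for *Chac1*, with an unadjusted limma p of 0.14 and an adjusted p of 1. For *Atf5* it was 0.43 (SE 0.26) and for *Atf4* -0.35 (SE 0.22). None of the 10 genes had a p under 0.05 in this fit, which was added after seeing the data.

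With all 6 BCAS libraries against both sham libraries, differences ran from -0.08 (SE 0.13) for *Atf5* to 0.58 (SE 0.70) for *Atf3*, with a median of 0.028. Without day 7 labelled WT, *Atf3* differed by 0.041 and *Atf5* by -0.13. No gene of the 10 had an adjusted p under 0.05 (0.0% of all genes by limma) or an unadjusted one (3.67%) by limma, edgeR, or DESeq2. With all 4 libraries labelled WT against all 4 labelled TRPA1-KO, 8 of the 10 genes were higher with the label WT, with a median of 0.062. *Atf3* differed by 0.72 (SE 0.60) with all libraries and by -0.066 without day 7 labelled WT, *Sesn2* by 0.27, *Chac1* by 0.26 (exact permutation p = 0.057), and *Trib3* by -0.27, which was -0.44 without that library. The groups of none of the 10 genes were apart (2.46% of all genes), none had an adjusted p under 0.05 by limma, edgeR, or DESeq2 (0.0497% by limma), and none had an unadjusted p under 0.05 by limma (3.94%) or DESeq2, while 1 did by edgeR, *Atf3* (edgeR adjusted p = 0.982).

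The rest of the pathway was read from 8 lists with 71 further genes, of which 70 were tested. They comprised eIF2α kinases, eIF2 and eIF2B subunits, partner factors, phosphatase genes, and 4 groups of ATF4 targets. Between the BCAS libraries of both labels, 47 of the 70 were higher with the label WT, with a median of 0.059. Of these, 3 had an unadjusted p under 0.05, or 4.29% beside 4.20% of all genes, and none had an adjusted one by limma. Without the day 7 library labelled WT, 37 of the 70 were higher, with a median of 0.014.

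Among the sensors, all 4 kinase genes were higher with the label WT after BCAS, with a median of 0.093. *Eif2ak2*, the interferon-inducible sensor of double-stranded RNA, had the smallest p of them. It was at 22.0, 10.6, and 7.68 CPM on days 7, 10, and 14 with the label WT and at 6.57, 6.51, and 9.47 CPM in those labelled TRPA1-KO, beside 6.96 and 6.81 CPM in sham. Its level thus lay highest in the same library as that of *Atf3*, and the difference of 0.65 (SE 0.32) did not pass (limma adjusted p = 0.983) and was 0.25 without that library. Of the 7 other eIF2 and eIF2B subunits, 5 were higher, with a median of 0.035, and *Eif2b2* differed by 0.11. Of 8 partner factors 4 were higher, and *Cebpa* differed by 0.65 (SE 0.25, limma adjusted p = 0.983). It was at 24.5 CPM in the day 7 library labelled WT, at 11.6 and 12.4 CPM on days 10 and 14, and between 8.13 and 10.2 CPM in the BCAS libraries labelled TRPA1-KO, and the difference was 0.32 without day 7 labelled WT. Of 4 genes of eIF2α dephosphorylation, 1 was higher, and *Ppp1cb* differed by -0.098.

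Among the targets, 11 of 13 genes of serine and one-carbon synthesis were higher with the label WT after BCAS, with a median of 0.079, and *Pycr1*, of proline synthesis, differed by 0.43 (SE 0.21). Of 12 aminoacyl-tRNA synthetase genes 8 were higher, with a median of 0.026, and *Mars1* differed by -0.19. Of 9 amino acid transporter genes 6 were higher, and *Slc1a5* differed by 0.44 (SE 0.22). Of 13 stress effectors 8 were higher, with a median of 0.13. Among them *Eif4ebp1*, a brake on cap-dependent translation, was at 4.09, 3.15, and 2.96 CPM with the label WT and at 1.78, 2.67, and 1.77 CPM in those labelled TRPA1-KO on days 7, 10, and 14. *Cdkn1a*, the cell cycle inhibitor p21, was at 24.1, 14.6, and 23.5 CPM and at 14.7, 16, and 13 CPM on these days. The groups of *Eif4ebp1* did not overlap, as in 9.21% of all genes, and those of *Cdkn1a* did. The differences of these 2 genes, 0.52 (SE 0.21) and 0.45 (SE 0.19), did not pass (limma adjusted p = 0.983 for each).

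*Eif4ebp1* also lay apart from sham, where it was at 1.41 and 1.15 CPM. It differed by 0.94 (SE 0.22, limma adjusted p = 0.73) in the BCAS libraries labelled WT and by 0.42 (SE 0.22, limma adjusted p of 1) in those labelled TRPA1-KO, and its BCAS libraries were all above both sham libraries. Among all genes tested, 19.9% did not overlap with sham for the label WT and 18.6% for the label TRPA1-KO. *Aldh1l2*, a mitochondrial enzyme of one-carbon metabolism, differed from sham by 0.50 (SE 0.17, limma adjusted p = 0.871) with the label WT. On the lower side, *Slc38a2*, which encodes the amino acid transporter SNAT2, differed from sham by -0.33 (SE 0.11) with the label WT and by -0.25 (SE 0.11) with the label TRPA1-KO, and *Ppp1ca*, a catalytic phosphatase subunit, by -0.25 (SE 0.076) and -0.17 (SE 0.076). None of these passed (limma adjusted p from 0.828 to 1). Over the 70 genes, 38 were higher than sham for WT labels and 32 for TRPA1-KO labels, with medians of 0.026 and -0.015. Cell type markers moved in the same comparisons. Striatal projection neuron markers had medians of -0.88 and -0.55 for the labels WT and TRPA1-KO, with an unadjusted limma p under 0.05 in 8 and 7 of 8. Blood markers had medians of -2.20 and -2.06, with 0 and 2 of 5 under 0.05. These 2 were *Hba-a1* and *Hba-a2*, which had the same value in every library. The summed level of blood markers ran from 1.11 CPM on day 7 after BCAS to 202 CPM in sham, both labelled TRPA1-KO. Sham labelled WT, at 63.2 CPM, lay below BCAS day 10 labelled WT (132 CPM) and BCAS day 14 labelled TRPA1-KO (80.0 CPM). Oligodendrocyte markers had medians of -0.27 and -0.28, with 3 of 8 under 0.05 for each label. Among them, *Mog* differed by -0.73 (limma adjusted p = 0.046) in the BCAS libraries labelled TRPA1-KO. This call was not stable. In this comparison, no gene had an adjusted p under 0.05 by limma with no filter on level or with a day block. The same held when any BCAS library labelled TRPA1-KO was left out. The part of these markers in the differences from sham was not tested.

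The neighbouring stress pathways had list medians within 0.1 of 0. Of 18 chaperone and degradation genes of the ATF6 and XBP1 branches of the unfolded protein response, 14 were higher with the label WT between BCAS libraries, with a median of 0.072, and 7 exceeded sham with the label WT and 3 exceeded it in libraries labelled TRPA1-KO, with medians of -0.059 and -0.085. Of 7 genes of the mitochondrial unfolded protein response, 4 were higher with the label WT between BCAS libraries, with a median of 0.0015. None of these genes passed by limma. *Dnajb11*, a chaperone of the endoplasmic reticulum, had the smallest p against sham with the label TRPA1-KO, at -0.20 (SE 0.087, limma adjusted p of 1).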

How the data were processed

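The 8 mouse libraries hold RNA of the corpus callosum. The authors selected polyadenylated RNA, mapped reads to mm10 with HISAT2, counted them per gene with featureCounts of Subread, and normalized them with edgeR. The deposited signal is a read count per gene scaled to CPM by the effective library size, not log-transformed. The annotation, strand setting, and gene filter are not given in the sources used here. Within 0.001, 100% of the values are whole numbers of reads, which were used as such.

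Tests were run on log2(CPM + 1) in limma 3.58.1 in R 4.3.3 (trended eBayes, two-sided, Benjamini-Hochberg adjustment over 18123 genes). Comparisons between BCAS labels used 6 libraries, and those with sham used all 8 in 1 fit of 3 groups. Single genes also had exact permutation tests, two-sided. Fold changes on this scale understate changes of genes near or below 1 CPM, such as *Atf3* and *Trib3*. edgeR 4.0.16 (quasi-likelihood) and DESeq2 1.42.0 were run on the recovered reads, with other pseudocounts, filters, and scalings, a day block, and each library left out, as alternatives. All tools were also run on simulated reads with large changes in genes of higher level and no differences between days. This does not show what they can detect in these libraries. Per the study's methods a sample comes from 1 mouse, so the libraries of a label are different mice on different days.

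The 10 genes and all lists were chosen with earlier results of these data known. All 10 genes are named, and of each list the genes with the smallest p, at most 2 higher and 2 lower with p under 0.05 or else 1, some of which are given here. Positions come from GENCODE M21 and promoter windows from RefSeq GRCm38.p6. Of the marker genes, 1 gene is not reported here and was left out of its list.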

Additional observations from a re-analysis of the deposited data

Results flagged for a closer look

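Within 30 sets of libraries (each of the 10 genes in the 6 BCAS libraries and in the 4 libraries of each label), a library lay far from the others in 6. The cutoff gives about 1 in 20 by chance for alike libraries, but these sets share libraries and mix days with operations or labels. The count of 6 was therefore not set against chance. The gap to the nearest library, as a share of the whole range, was 0.700 for *Atf3* and 0.683 for *Ddit3* in the day 7 library labelled WT among the 6 BCAS libraries. Among the 4 libraries labelled WT, it was 0.874 for *Atf3* in the same library and 0.97 for *Chac1* in the sham library, which was the lowest. Among the 4 libraries labelled TRPA1-KO, the day 14 BCAS library was highest in *Atf3* (0.859) and lowest in *Eif2b5* (0.848). The BCAS effect on *Chac1* had opposite directions in the 2 labels, each against its own sham library, and the difference of 0.54 on the log2(CPM + 1) scale had an unadjusted limma p of 0.14.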

How the results depend on the processing

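None of the 855 fits of the 10 genes under the alternatives set in advance gave an adjusted p under 0.05, and the smallest in any fit was 0.469. Of 418 reported fold changes under these alternatives, 408 kept their direction, and the other 10 changed sign when 1 library was left out. The count of the 10 genes above sham also depended on the processing. With the label WT it was 8, but 7 with a pseudocount of 0.1 CPM or equalized library medians, and 6 with a day block. With the label TRPA1-KO and with all BCAS libraries it was 5, but 4 with a day block. Between BCAS labels, leaving out each library in turn gave from -0.28 to 1.39 for *Atf3*, -0.12 to 0.28 for *Ddit3*, -0.076 to 0.041 for *Asns*, and -0.0043 to 0.073 for *Eif2b5*. In BCAS labelled WT against sham it gave from -0.10 to 1.57 for *Atf3*, -0.20 to 0.042 for *Atf4*, and -0.10 to 0.29 for *Ddit3*. In all BCAS libraries against sham it gave from -0.21 to 0.042 for *Atf5*, and between all libraries of both labels from -0.066 to 1.05 for *Atf3*. The median of the 10 genes ran from 0.015 to 0.18 between BCAS labels and from -0.061 to 0.11 in BCAS labelled WT against sham, in both lowest without the day 7 library labelled WT. In BCAS labelled TRPA1-KO against sham it ran from -0.095 to 0.047, in all BCAS libraries against sham from -0.015 to 0.046, and between all libraries of both labels from 0.031 to 0.11.

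The count of the 10 genes with an unadjusted p under 0.05 between BCAS labels was 1, but 0 with DESeq2 and from 0 to 1 when libraries were left out. It was 0 in the limma fits without day 10 or day 14 labelled WT and without each of the 3 libraries labelled TRPA1-KO, and 1 (*Trib3*) without day 7 labelled WT. In BCAS labelled WT against sham it was 0, and 1 with edgeR under either scaling (TMM or RLE). Between all libraries of both labels it was 0, and 1 with edgeR under either scaling and from 0 to 1 when libraries were left out (1 without day 7 labelled WT, *Trib3*, and 1 without sham labelled TRPA1-KO, *Chac1*). With the postoperative day as a replicate block it was 0 between BCAS labels, where the difference of *Chac1* stayed at 0.40, and the block changed no other call of the 10 genes. The days did not pair the libraries, since the correlations of same-day deviations were -0.10, 0.0051, and -0.26 over 10744 genes. The cause of these changes was not tested.

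Over all genes tested, 761 had a p under 0.05 between BCAS labels and 3 an adjusted one, against 595 and 17 with DESeq2. Leaving out 1 library gave from 325 to 1846 and from 1 to 29, with most without day 14 labelled WT. Against sham, limma called 0 genes for WT labels and 1 for TRPA1-KO labels by adjusted p, and DESeq2 called 24 and 4, with 0 of the 10 genes among them. Groups of 2 to 4 libraries without same-day replicates and the few reads of *Trib3*, *Atf3*, and *Chac1* limit what could be detected here.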
